A study of Mus musculus with 8 samples.

Results

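Neurexins and neuroligins are cell-surface proteins that bind each other across the synaptic cleft. Neurexins sit mainly on the presynaptic side and neuroligins on the postsynaptic side, and the leucine-rich repeat proteins Lrrtm1, Lrrtm2 and Lrrtm3 are further synaptic organizers, of which Lrrtm1 and Lrrtm2 are known as postsynaptic ligands of neurexins. Astrocytes carry part of this system too. In mice, astrocytic neuroligins are known to shape the fine branches of astrocytes through contact with neuronal neurexins, and Nrcam, an adhesion protein of the L1 family, is known to join astrocyte processes to inhibitory synapses.

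The genes described are Nrxn2, Nrxn3, Nlgn1, Nlgn2, Nlgn3, Nrcam, Lrrtm1, Lrrtm2 and Lrrtm3, found by symbol. All 9 have a row among the 24047 rows of the count table, and all 9 passed the filter on low counts. Their lowest count in any library was 31. RNA came from tdTomato-positive cells sorted as astrocytes from mouse somatosensory cortex at postnatal days 23 to 25. The 4 Ptch1cKO libraries came from Glast-CreERT2; Ptch1fl/fl; Ai14 mice and the 4 WT libraries from Glast-CreERT2; Ai14 mice. Both groups thus carried the tamoxifen-inducible Cre, driven by the promoter of the glial glutamate transporter Glast, and the Ai14 tdTomato reporter, and both received 20 mg/ml tamoxifen on days 12 to 14. Ptch1 is the receptor that holds Hedgehog signalling off, and the comparison asks what changes in astrocytes in which its deletion is induced at that age. Whether the libraries came from separate animals is not in the labels. The p-values therefore rest on the spread between libraries, which may be technical.

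Total counts were 4061274 to 7043378 in Ptch1cKO and 4958119 to 7206462 in WT libraries. Ptch1 itself had a log2 fold change of -0.67 (SE 0.22), with 168 to 258 CPM (counts scaled to library size) in Ptch1cKO and 227 to 491 CPM in WT libraries, and did not pass over all genes (adjusted p = 0.349 by the quasi-likelihood fit of edgeR with Benjamini-Hochberg adjustment, threshold 0.05). The count is given per gene, so transcripts that lack the floxed exons may still be counted, which was not tested. WT replicates 2 and 3 had 1148 and 612 Xist counts, and the other 6 libraries at most 4. Ddx3y, a gene of the Y chromosome, had 0 counts in WT replicates 2 and 3 and 498 to 1073 counts in the other 6. By these genes WT replicates 2 and 3 were female and the other 6 libraries male. Sex was thus not balanced between the genotypes and is partly confounded with them. The 10 astrocyte markers summed to 16523 to 33901 CPM in Ptch1cKO and 21052 to 31710 CPM in WT libraries. Transcripts of other cells were present as well. The 10 neuronal markers summed to 4016 to 5189 CPM in Ptch1cKO and 4073 to 5557 CPM in WT, and the 6 oligodendrocyte markers to 17446 to 23064 CPM in Ptch1cKO and 13743 to 26610 CPM in WT. Microglial markers were at 206 to 447 CPM in Ptch1cKO and 177 to 375 CPM in WT, and oligodendrocyte precursor markers at 116 to 178 CPM in Ptch1cKO and 83.8 to 153 CPM in WT. Endothelial markers were at 3.31 to 11.8 CPM in Ptch1cKO and 2.69 to 15.2 CPM in WT. None of the 6 sums passed between the groups (exact permutation test, two-sided, all 70 assignments, p = 0.171 to 0.971, adjusted p = 0.823 to 0.971, smallest possible p = 0.0286 before adjustment). After adjustment over the 6 sums, a single fully separated sum could not have passed, so the adjusted test says little. Neurexins, neuroligins and Lrrtm genes are also expressed by neurons and oligodendrocyte precursors, and the share of each level that came from such cells was not tested. In such sorted bulk samples, fewer cells of a type and less RNA per cell cannot be told apart.

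Nrxn3 is the only gene of the 9 whose groups did not overlap, where 5.02% of all tested genes had no overlap. Its count adds up transcripts from several start sites. RefSeq annotates 3 transcript starts on chromosome 12, plus strand, of GRCm38.p6, at 88794504, 88953390 and 89812483. All 3 lie inside the gene, which begins at 88722876 in the GENCODE annotation. Neurexin genes are known to make long and short forms from separate promoters. Whether each of these starts marks a promoter or an internal exon was not tested. The regions are shown because the deposited count does not separate such transcripts. Each run has 300 bases, with the first 50 bases from the annotated start in capitals.
Nrxn3 first start, chr12:88794254-88794553: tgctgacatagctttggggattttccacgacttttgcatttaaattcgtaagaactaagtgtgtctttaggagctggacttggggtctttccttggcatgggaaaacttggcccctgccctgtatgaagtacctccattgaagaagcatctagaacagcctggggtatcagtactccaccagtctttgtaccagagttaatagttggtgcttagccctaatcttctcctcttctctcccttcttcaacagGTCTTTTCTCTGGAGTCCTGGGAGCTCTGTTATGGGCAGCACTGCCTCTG
Nrxn3 middle start, chr12:88953140-88953439: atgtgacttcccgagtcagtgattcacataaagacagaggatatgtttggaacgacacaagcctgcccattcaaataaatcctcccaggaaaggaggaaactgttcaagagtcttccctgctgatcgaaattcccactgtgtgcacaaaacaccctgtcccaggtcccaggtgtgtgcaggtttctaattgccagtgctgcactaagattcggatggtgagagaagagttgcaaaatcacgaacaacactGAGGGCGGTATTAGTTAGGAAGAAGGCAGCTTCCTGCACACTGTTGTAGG
Nrxn3 last start, chr12:89812233-89812532: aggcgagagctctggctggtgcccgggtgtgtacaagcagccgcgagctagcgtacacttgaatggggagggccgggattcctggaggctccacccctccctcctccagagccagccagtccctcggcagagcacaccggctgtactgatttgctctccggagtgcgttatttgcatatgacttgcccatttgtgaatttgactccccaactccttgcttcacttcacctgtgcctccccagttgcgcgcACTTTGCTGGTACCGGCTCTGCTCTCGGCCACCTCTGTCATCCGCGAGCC
The letters GACCACCCA, the consensus site of the Gli factors that act at the end of the Hedgehog pathway, were searched on both strands. They were found in 0 of 9 such start regions of 6 of the genes (Nrxn3, Nlgn1, Nlgn2, Nrcam, Lrrtm1 and Lrrtm3) and in 0.253% of the 32851 regions of the same length in the RefSeq table. Its core letters TGGGTGG, also searched on both strands, were in 2 of the 9 regions, those of Lrrtm3 and Nrcam, and in 9.30% of the 32851 regions. A match is a description of the letters, and a missing match says only that they are not in these windows.

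By level per transcript length, Nlgn3 stood far above the rest. Its mean over the 8 libraries was 361 TPM (scaled for transcript length and library size, as the authors deposited them; range 256 to 448), which placed it at rank 412 of the tested genes. Nrcam followed at 101 TPM (58.6 to 130.4) and rank 1401. Nrxn2 and Nlgn2 were level at 74.1 TPM (61.5 to 93.3) and 74.0 TPM (50.4 to 97.8). Lower still were Nlgn1 at 29.5 TPM (23.8 to 43.3), Lrrtm2 at 24.6 TPM (18.9 to 33.2) and Nrxn3 at 22.0 TPM (15.9 to 32.5). Lrrtm1 and Lrrtm3 were lowest, at 12.8 TPM (5.42 to 24.3) and 11.3 TPM (6.46 to 14.4). The ranges of neighbours in this order were separate between Nlgn3 and Nrcam and between Nlgn2 and Nlgn1, and overlapped for the other 6 neighbouring pairs. Exome capture probes were used, so levels of different genes also depend on capture.

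Across the family, 0 of 9 genes passed over all genes by edgeR's quasi-likelihood test, and 0 passed by DESeq2 (0.609% of the 12978 genes it tested) or by limma on the TPM. Over all 10954 genes tested by edgeR, 11 passed (0.10%), with 0.0822% higher and 0.0183% lower in Ptch1cKO. One of the 9 genes, Nrxn3, had an unadjusted p under 0.05, where 9.34% of all tested genes did. Nrxn3 was also the 1 gene of the 9 without overlap between the groups, against 5.02% of all tested genes and 2.5% for a lower level in Ptch1cKO. Among only 9 genes, a single such gene is not far from what these shares give. Of the 9 fold changes 4 were positive and 5 negative, with a median of -0.08 on the log2 scale beside -0.0019 over all tested genes. For the 8 genes other than Nrxn3 the 95% intervals of the fold change all included no change and lay between 0.628-fold and 1.90-fold.

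**Figure D1:**
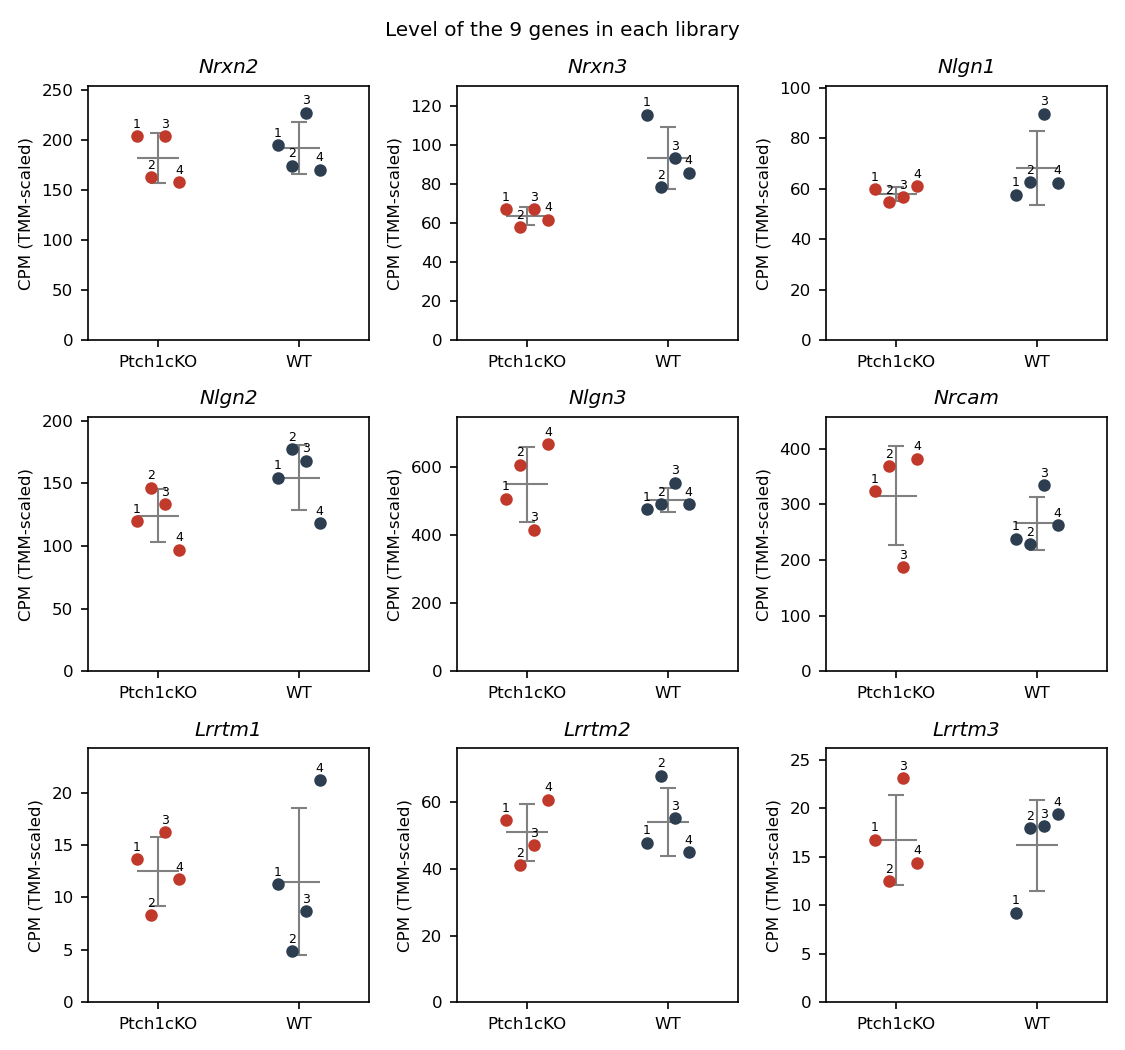
TMM-scaled CPM of each of the 9 genes in the 4 Ptch1cKO and 4 WT libraries. Points are libraries with their replicate number, grey bars the mean and SD (n = 4). In Nrxn3 the 4 Ptch1cKO points (57.9 to 67.3 CPM) lie below the 4 WT points (78.6 to 116 CPM), and in the other 8 genes the groups overlap.

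Neurexins, the receptors that organize the presynaptic side, were represented by Nrxn2 and Nrxn3. Nrxn3 (ENSMUSG00000066392.11, chromosome 12 of GRCm38, 88722876 to 90334935, plus strand) had 67.3, 57.9, 67.2 and 61.8 CPM in Ptch1cKO replicates 1 to 4, against 116, 78.6, 93.4 and 85.8 CPM in WT replicates 1 to 4. Every Ptch1cKO library lay below every WT library, and the Ptch1cKO values lay closer together. Its mean was 63.5 ± 4.57 CPM in Ptch1cKO and 93.3 ± 16.0 CPM in WT (SD, n = 4 each), a fold of 0.681 (95% interval 0.540 to 0.857). The log2 fold change was -0.56 (SE 0.16), with an unadjusted p of 0.00283 that did not pass over all genes (edgeR adjusted p = 0.299). Adjusted p-values were 0.0742 to 0.627 over 16 alternatives, of which DESeq2 gave the smallest. The log2 fold change was negative in all 16, from -0.67 to -0.44. The alternatives refit the same libraries. As the groups did not overlap, leaving out 1 library could hardly turn the sign. The level was also lower in all 4 Ptch1cKO libraries in the deposited TPM, with 17.0 ± 1.02 TPM in Ptch1cKO and 27.0 ± 4.06 TPM in WT (SD, n = 4 each). In the 4 Ptch1cKO and the 2 WT libraries with under 10 Xist counts the log2 fold change was -0.67 (SE 0.19; edgeR, adjusted p = 0.411). Neuronal markers had a log2 ratio of -0.09 by summed CPM, -0.22 by summed TPM and 0.0015 by mean log2 CPM. On the log2(TPM + 1) scale the median log2 fold change of all tested genes was itself -0.10. The part of neuronal markers in the Nrxn3 difference was not tested.

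Nrxn2 (ENSMUSG00000033768.17, chromosome 19, 6418731 to 6544169, plus strand) did not show this pattern. It had 204, 163, 204 and 158 CPM in Ptch1cKO replicates 1 to 4, against 195, 175, 228 and 170.5 CPM in WT replicates 1 to 4. The groups overlapped throughout, and the fold was 0.949 (95% interval 0.770 to 1.17; edgeR adjusted p = 0.922). The ratio of Nrxn2 to Nrxn3 in TPM was 3.64 to 4.32 in Ptch1cKO libraries and 2.40 to 3.47 in WT libraries. This ratio repeats the difference in Nrxn3 and is given as a description. Exons of Nrxn2 share 682 bases with the opposite-strand gene Slc22a12, which had at most 4 counts in any library, and Nrxn3 shares 439 exonic bases with an opposite-strand transcript. The sources used here do not say whether reads were counted by strand.

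Neuroligins, the partners of neurexins, spanned a wide range of levels, and none of the 3 passed between the genotypes. Nlgn3 (ENSMUSG00000031302.16, X chromosome, 101299168 to 101325963, plus strand) is found at excitatory and inhibitory synapses and is abundant in glia. It had 507, 607, 416 and 666 CPM in Ptch1cKO replicates 1 to 4, against 477, 491, 554 and 491 CPM in WT replicates 1 to 4. The WT libraries lay within the Ptch1cKO range. The fold was 1.09 (95% interval 0.885 to 1.35, edgeR adjusted p = 0.840). On the authors' TPM scale the log2 fold change had the opposite sign, at -0.01, where the median of all tested genes was -0.10. Without Ptch1cKO replicate 4 the log2 fold change was 0.020, and without Ptch1cKO replicate 3 it was 0.24, beside 0.13 with all libraries. Nlgn3 made up 74.6 to 85.1% of the summed TPM of the 3 neuroligins in Ptch1cKO libraries and 73.3 to 78.6% in WT libraries. Nlgn3 is X-linked, and the WT libraries with Xist counts (491 and 554 CPM) and those without (477 and 491 CPM) were close. Nlgn3 shares 3823 exonic bases with Gm21986 on the same strand, which is not a row of the count table.

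Nlgn2 (ENSMUSG00000051790.15, chromosome 11, 69823122 to 69837784, minus strand) is the neuroligin of inhibitory synapses. It had 119.9, 146, 133 and 97.0 CPM in Ptch1cKO replicates 1 to 4, against 155, 177, 168 and 118 CPM in WT replicates 1 to 4. WT replicate 4 lay within the Ptch1cKO range and the other 3 WT libraries above it. The mean was 124 ± 21.1 CPM in Ptch1cKO and 154 ± 25.8 CPM in WT (SD, n = 4 each), a log2 fold change of -0.32 (SE 0.16), which did not pass (edgeR adjusted p = 0.585). The WT libraries with Xist counts were the highest 2, and with the 6 other libraries alone the log2 fold change was -0.14 (SE 0.20).

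Nlgn1 (ENSMUSG00000063887.13, chromosome 3, 25426215 to 26332460, minus strand) is the neuroligin of excitatory synapses. It had 59.8, 54.7, 56.8 and 61.0 CPM in Ptch1cKO replicates 1 to 4, against 57.7, 62.5, 89.7 and 62.4 CPM in WT replicates 1 to 4. WT replicate 3 stood apart, and the other 7 libraries lay between 54.7 and 62.5 CPM. The log2 fold change was -0.23 (SE 0.17; edgeR adjusted p = 0.728), and it was -0.07 without WT replicate 3. Exons of Nlgn1 share 1229 bases with an opposite-strand transcript.

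**Figure D2:**
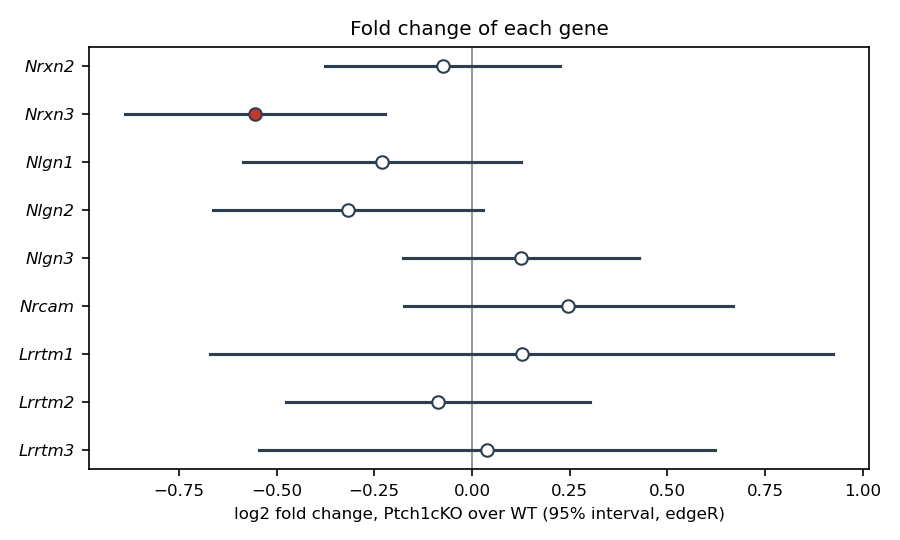
Fold change of each of the 9 genes, Ptch1cKO over WT, on the log2 scale from edgeR. Points are estimates, lines 95% intervals, and the filled point marks the gene whose groups did not overlap. The interval of Nrxn3 (-0.89 to -0.22) lies below 0 before adjustment for all genes tested, and the other 8 intervals include 0.

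Nrcam (ENSMUSG00000020598.16, chromosome 12, 44328885 to 44601964, plus strand) had 324, 369, 188 and 382 CPM in Ptch1cKO replicates 1 to 4, against 238, 229, 335 and 262 CPM in WT replicates 1 to 4. Of the Ptch1cKO libraries 1, 2 and 4 were above WT replicates 1, 2 and 4, and Ptch1cKO replicate 3 was the lowest library of all. The mean was 316 ± 88.9 CPM in Ptch1cKO and 266 ± 48.0 CPM in WT (SD, n = 4 each). The log2 fold change of 0.25 (SE 0.20) did not pass (edgeR adjusted p = 0.763). It was 0.43 without Ptch1cKO replicate 3, 0.38 without WT replicate 3, 0.17 without Ptch1cKO replicate 2 and 0.14 without Ptch1cKO replicate 4. On the TPM scales it was 0.09, where the median of all tested genes was -0.10 and -0.11. None of these passed.

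Ptch1cKO replicate 3 was the lowest library for both Nlgn3 and Nrcam, and it also had the lowest sum of astrocyte markers, at 16523 CPM beside 21052 to 33901 CPM in the other 7 libraries. It had the smallest total count, and its neuronal marker sum of 5189 CPM was the highest among the Ptch1cKO libraries. By the mean log2 CPM of the same 10 markers, WT replicate 2 was lowest at 8.48 and Ptch1cKO replicate 3 next at 8.57. By that measure Ptch1cKO replicate 4 was highest at 9.05 and WT replicate 3 next at 9.03, while WT replicate 4 had 8.61. The sum and the mean log2 CPM thus order the libraries differently. The highest marker sum was in Ptch1cKO replicate 2 (33901 CPM), while Nlgn3 and Nrcam were highest in Ptch1cKO replicate 4, with a marker sum of 25248 CPM. Among the WT libraries both genes were highest in replicate 3 (31710 CPM of markers), and replicate 4, with 30401 CPM of markers, had 491 CPM of Nlgn3 and 262 CPM of Nrcam. The part of astrocyte content in the levels of Nlgn3 and Nrcam was not tested. Over the 8 libraries, the pattern of Nlgn3 was closest to those of Copb2, AU019823, Lphn3, Casc4 and Macf1. Likeness was the root mean square difference of centred log2 CPM, which was 0.071 to 0.096 for these 5 genes. The median was 0.328 over the 6747 genes that averaged 10 CPM or more. The 5 were picked as the nearest, so lying under the median was fixed by the choice. A gene level in all libraries would lie at 0.200. Lphn3, the older symbol of the latrophilin Adgrl3, is an adhesion receptor and is also among the partner genes listed further on. Its likeness to Nlgn3 was not tested.

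**Figure D3:**
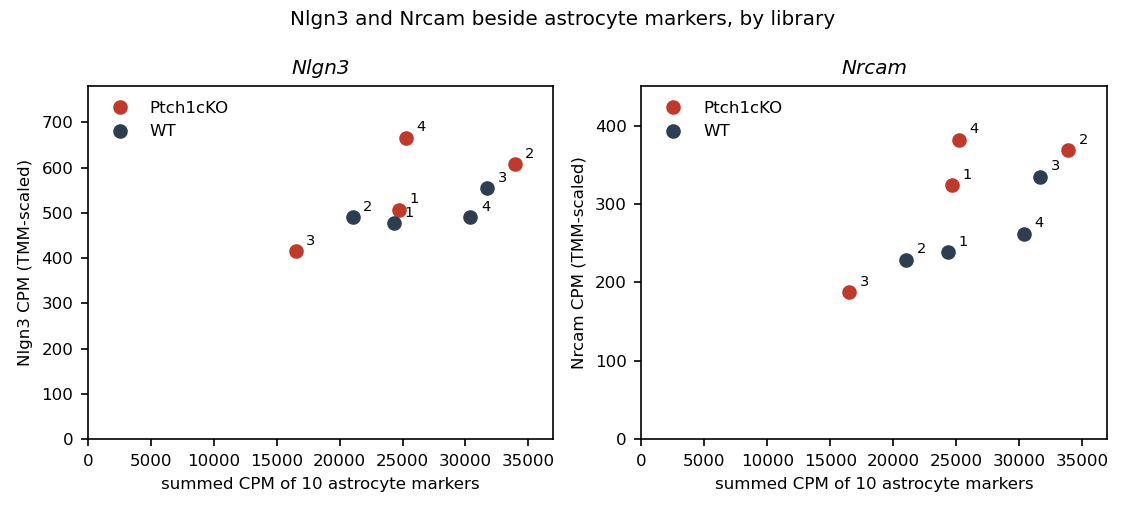
Nlgn3 (left) and Nrcam (right) in TMM-scaled CPM against the summed CPM of 10 astrocyte markers, 1 point per library with its replicate number, Ptch1cKO and WT in separate colours. Ptch1cKO replicate 3 (16523 CPM of markers) is the lowest point for both genes, at 416 CPM for Nlgn3 and 188 CPM for Nrcam.

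The Lrrtm proteins are leucine-rich repeat organizers of excitatory synapses, and each of the 3 genes lies inside a gene of the alpha-catenin family on the opposite strand. Lrrtm2 (ENSMUSG00000071862.3, chromosome 18, 35209003 to 35215024, minus strand) had 54.7, 41.2, 47.2 and 60.8 CPM in Ptch1cKO replicates 1 to 4, against 47.9, 68.0, 55.4 and 45.1 CPM in WT replicates 1 to 4. The groups overlapped, with a fold of 0.942 (95% interval 0.720 to 1.23; edgeR adjusted p = 0.936). Its exons share 95 bases with its host Ctnna1, which had 188 ± 15.0 CPM in Ptch1cKO and 175 ± 20.6 CPM in WT (SD, n = 4 each).

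Lrrtm1 (ENSMUSG00000060780.2, chromosome 6, 77242689 to 77257791, plus strand) had 96, 48, 66 and 71 counts in Ptch1cKO replicates 1 to 4, against 67, 31, 62 and 103 counts in WT replicates 1 to 4. In CPM this was 8.34 to 16.2 in Ptch1cKO and 4.87 to 21.2 in WT, so the WT libraries lay on both sides of the Ptch1cKO range. The fold of 1.09 had an interval of 0.628 to 1.90, the widest of the 9 genes. Without WT replicate 4, the highest library, the log2 fold change was 0.59, beside 0.13 with all libraries, and without WT replicate 2 it was -0.13. Lrrtm3 (ENSMUSG00000042846.8, chromosome 10, 63928472 to 64090277, minus strand) had 16.8, 12.5, 23.1 and 14.4 CPM in Ptch1cKO replicates 1 to 4, against 9.25, 17.9, 18.2 and 19.4 CPM in WT replicates 1 to 4. The lowest library was a WT one and the highest a Ptch1cKO one, with a fold of 1.03 (95% interval 0.686 to 1.54). Neither gene passed (edgeR adjusted p = 0.962 for Lrrtm1 and 0.983 for Lrrtm3). No annotated exon of Lrrtm1 or Lrrtm3 overlaps one of its host, Ctnna2 or Ctnna3.

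Genes that work with these proteins were taken from 9 lists of 58 genes, of which 52 were tested. None passed over all genes by edgeR (0 of 52, against 0.10% of all tested genes). An unadjusted p under 0.05 by edgeR was found for 5 of 52, against 9.34% of all tested genes. In CPM, 3 of 52 had no overlap between groups, against 5.02%. Both counts are near the share over all genes. DESeq2 called 1 of them, Khdrbs2, where it called 0.609% of all genes it tested. Fold changes were positive for 26 and negative for 26, with a median of 0.0033 on the log2 scale beside -0.0019 over all tested genes. Over all tested genes 49.6% had a positive fold change, and these shares are the background for each list below. Genes of a list were measured in the same libraries, so their signs are not independent.

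Khdrbs2, an RNA-binding protein of the family that controls alternative splicing of neurexin transcripts, had the largest difference among them. It had 32, 18, 12 and 20 counts in Ptch1cKO replicates 1 to 4, against 59, 91, 37 and 48 counts in WT replicates 1 to 4. In CPM every Ptch1cKO library (2.95 to 4.54) lay below every WT library (5.17 to 14.3), a log2 fold change of -1.47 (SE 0.35; edgeR adjusted p = 0.158). DESeq2 gave an adjusted p of 0.0267, and edgeR without the count filter 0.0126, where it called 199 of 20578 genes. The 16 alternatives gave 0.0126 to 0.466, and no other of them was under 0.05. In the main edgeR fit neither Khdrbs2 nor its relatives passed. The relatives had log2 fold changes of 0.04 (SE 0.14) for Khdrbs1 and -0.08 (SE 0.17) for Khdrbs3. Splice forms of the neurexins are not separated in the deposited counts.

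Among other neurexin ligands, 0 of 13 tested genes passed by edgeR, fold changes were positive for 7 and negative for 6, and 2 genes were under 0.05 before adjustment. Dag1, the dystroglycan that binds neurexins and laminin, had 132, 173, 114 and 215 CPM in Ptch1cKO replicates 1 to 4, against 85.5, 79.5, 143 and 85.6 CPM in WT replicates 1 to 4. WT replicate 3 was within the Ptch1cKO range and the other WT libraries below it, and the log2 fold change was 0.69 (SE 0.22; edgeR adjusted p = 0.349). Without the count filter Dag1 was called by edgeR (adjusted p = 0.00408), where 199 of 20578 genes were. Its log2 fold change was then 0.70, with a smaller SE of 0.16. Over the 16 alternatives the adjusted p was 0.00408 to 0.698, and no other alternative called it. Sparcl1, the secreted protein hevin that bridges neurexins and neuroligins, had the highest level of this list, at 1849, 3909, 1676 and 2970 CPM in Ptch1cKO replicates 1 to 4, against 1628, 1175, 1998 and 1728 CPM in WT replicates 1 to 4. The groups overlapped and it did not pass (log2 fold change 0.67, SE 0.24; edgeR adjusted p = 0.420). Without Ptch1cKO replicate 2, the highest library, the log2 fold change was 0.41. The latrophilins Lphn1 and Lphn3, adhesion receptors with known neurexin or teneurin partners, had log2 fold changes of -0.20 (SE 0.12) and 0.19 (SE 0.15). Clstn1, a calsyntenin, was without overlap at 60.5 to 75.2 CPM in Ptch1cKO and 47.8 to 59.0 CPM in WT (log2 fold change 0.31, SE 0.15; edgeR adjusted p = 0.555); it was named after its values were seen.

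**Figure D4:**
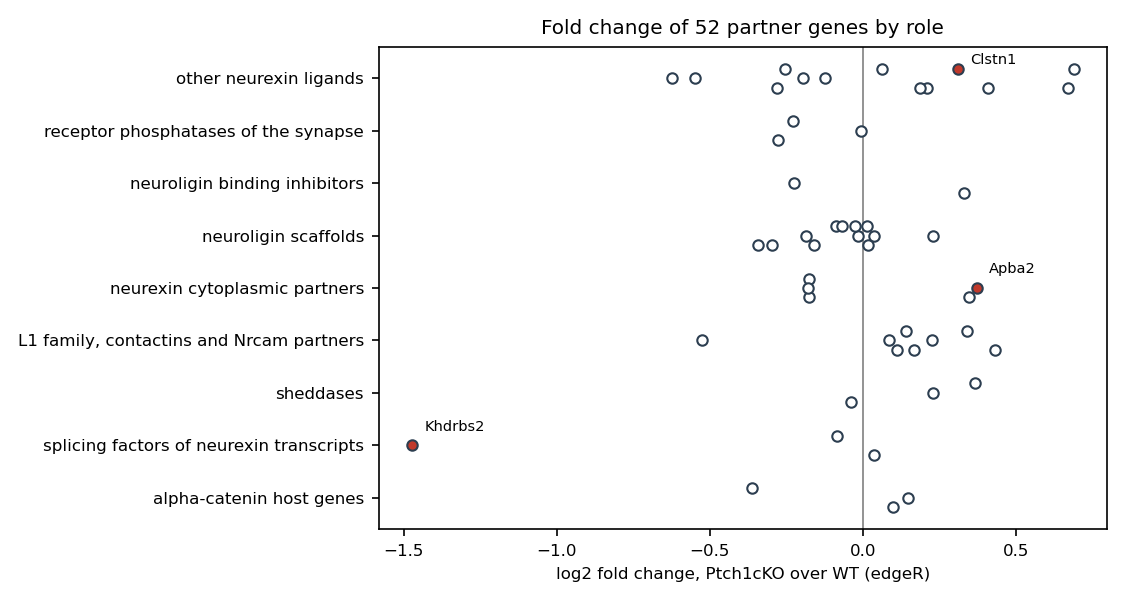
Fold change of 52 partner genes, Ptch1cKO over WT, on the log2 scale from edgeR, in rows by role. Each point is a gene, vertical offsets only separate points, and filled points are genes whose groups did not overlap in TMM-scaled CPM. Khdrbs2 lies farthest out at -1.47, and the filled points to the right are Clstn1 at 0.31 and Apba2 at 0.37.

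The scaffold proteins that hold neuroligins at the postsynaptic side had 0 of 12 genes passing by edgeR, with positive fold changes for 4 and negative ones for 8, and 1 gene under 0.05 before adjustment. Dlg4, the scaffold PSD-95, had 1073 ± 119 CPM in Ptch1cKO and 1045 ± 84.6 CPM in WT, and its relative Dlg2 had 1921 ± 203 CPM in Ptch1cKO and 2041 ± 299 CPM in WT (SD, n = 4 each). Shank1, a scaffold of excitatory synapses, had 1214 ± 319 CPM in Ptch1cKO and 1540 ± 115 CPM in WT (SD, n = 4 each), a log2 fold change of -0.34 (SE 0.16; edgeR adjusted p = 0.529). The Mdga proteins bind neuroligins and block neurexin from them. Neither Mdga2 (log2 fold change -0.23, SE 0.17) nor Mdga1 (0.33, SE 0.44, with 7 to 48 counts a library) passed.

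Cytoplasmic partners of neurexins had 0 of 5 genes passing by edgeR and 1 unadjusted p under 0.05. That gene was Apba2, the adaptor Mint2, at 128, 147, 123 and 134 CPM in Ptch1cKO replicates 1 to 4, against 119.6, 71.8, 121 and 97.8 CPM in WT replicates 1 to 4. In CPM the groups did not overlap, and the lowest Ptch1cKO library lay just above the highest WT library (log2 fold change 0.37, SE 0.17, edgeR adjusted p = 0.506). In the deposited TPM they did overlap, with the lowest Ptch1cKO library at 86.1 TPM and the highest WT library at 97.5 TPM. The scaffold kinase Cask, which binds the neurexin tail, and its partner Lin7c each had -0.18 (SE 0.12) on the log2 scale. The 3 receptor phosphatases Ptprd, Ptprs and Ptprf, presynaptic organizers that act beside neurexins, all had negative values, on the log2 scale -0.28 (SE 0.14) for Ptprd, -0.23 (SE 0.20) for Ptprs and -0.01 (SE 0.22) for Ptprf, and none passed.

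In the list of the L1 family, contactins and other partners of Nrcam, 7 of 8 fold changes were positive, beside 49.6% of all tested genes. Of these 8 genes 0 passed by edgeR, and 0 had an unadjusted p under 0.05. The ankyrins Ank2 and Ank3, which tie Nrcam to the cytoskeleton, had log2 fold changes of 0.11 (SE 0.15) and 0.08 (SE 0.13), and Cntn1, a contactin, 0.17 (SE 0.20). The sheddases Adam10, Adam17 and Bace1, proteases that release the outer part of adhesion proteins, gave log2 values of -0.04 (SE 0.16) for Adam10, 0.23 (SE 0.22) for Adam17 and 0.37 (SE 0.22) for Bace1. The host genes Ctnna1, Ctnna2 and Ctnna3 had 0.10 (SE 0.13), 0.15 (SE 0.12) and -0.36 (SE 0.64). None of these 6 passed.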

How the data were processed

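Low-input amplified cDNA was enriched by exome capture, per the labels' protocols. bcl2fastq 2.18, STAR 2.5 and the build mm10 are named in the submitters' processing notes. The sources used here give no counter, annotation or strand setting. The authors deposited raw counts per gene symbol (24047 rows) and TPM (23585 rows).

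In R 4.3.3, edgeR 4.0.16 kept 10954 of 20578 genes with a count (filterByExpr by group, minimum count 10) and compared Ptch1cKO with WT by the quasi-likelihood F test with robust estimation and TMM factors, group as the only term. Adjusted p-values (Benjamini-Hochberg, threshold 0.05) cover all tested genes. The SE is the log2 fold change over the square root of F, and 95% intervals use the test's degrees of freedom. CPM use TMM-scaled library sizes. DESeq2 1.42.0, limma 3.58.1 on log2(TPM + 1) or log2(TPM + 0.1), other scalings and left-out libraries were alternatives. No 2 libraries agreed within sampling noise (chi-square test of counts). GENCODE M21 on GRCm38, the assembly of mm10, gave gene positions, and RefSeq gave start regions.

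The members and lists were chosen with earlier results of these data known. Named genes were the 9 members, Ptch1, Xist, Ddx3y, called partner genes, up to 3 partners per list with the highest mean TPM, and 5 genes nearest in pattern to the member with the highest mean CPM. Dag1, Clstn1 and the overlapping genes Slc22a12 and Gm21986 fall outside this rule and were named after their values were seen. Prefixes in the column names split the libraries inside each genotype, without explanation in the labels, and any batch they mark cannot be told apart from genotype.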

Additional observations from a re-analysis of the deposited data

Results flagged for a closer look

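The gap of 1 library to the rest of its group of 4 was large against the group's range in 2 of 84 groups checked, where chance flags about 1 in 20. Nlgn1 had 89.7 CPM in WT replicate 3, with the other 3 WT libraries at 57.7 to 62.5 CPM. Lrrtm3 had 9.25 CPM in WT replicate 1, with the other 3 WT libraries at 17.9 to 19.4 CPM.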

How the results depend on the processing

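The absence of a call among the 9 genes held in all 16 alternatives, and Nrxn3, Nlgn1, Nlgn2 and Nrcam had the same sign in each. The number of called genes was 11, and it was 199 without the count filter, 79 by DESeq2, 5 with the replicate block, 3 in the 6 libraries with under 10 Xist counts, 2 by limma on either TPM scale and 1 to 19 when single libraries were left out. Called partner genes numbered 2 without the filter, where 199 of all 20578 genes were called. They numbered 1 by DESeq2, where 79 of 12978 were. Ptch1 passed without the filter (log2 fold change -0.66, edgeR, adjusted p = 0.00235), with an SE of 0.15 there beside 0.22 with the filter. The sign turned for Nlgn3 on the TPM scales (-0.012 and -0.013), where the median of all genes shifted to -0.10 and -0.11, and for Lrrtm3 there (-0.053 for both). It turned for Lrrtm1 (-0.38) and Lrrtm2 (0.13) in the 6 libraries. Leaving out single libraries gave -0.13 to 0.016 for Nrxn2, -0.13 to 0.59 for Lrrtm1, -0.18 to 0.044 for Lrrtm2, -0.15 to 0.16 for Lrrtm3, 0.020 to 0.24 for Nlgn3 and 0.14 to 0.43 for Nrcam, and none of these passed. The sign turned without WT replicate 3 for Nrxn2, without Ptch1cKO replicate 3 or WT replicate 2 for Lrrtm1, without replicate 2 of either group for Lrrtm2, and without Ptch1cKO replicate 3 or WT replicate 1 for Lrrtm3. In the marker sums, as log2 ratios, the sign turned with the mean log2 CPM of a list, an alternative chosen after seeing the data, for astrocyte (0.15) and neuron (0.0015) markers, and with summed TPM for oligodendrocyte markers (-0.15). With single libraries left out these ratios were -0.28 to 0.056 for astrocyte, -0.11 to 0.20 for oligodendrocyte and -0.82 to 0.49 for endothelial markers. The cause was not tested. Replicate numbers of the titles did not pair the libraries: the correlation of deviations was -0.17 to 0.018 over the 4 numbers, and no Ptch1cKO library correlated best with the WT library of its own number, and the replicate block gave 0 called members. Lrrtm1 and Lrrtm3 had 31 to 130 counts a library, the lowest of the 9 genes.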
